A study of Rattus norvegicus with 24 samples.

Results

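The red cell lineage is represented here by 6 genes, out of the 15443 genes named on the array, described across the lungs of 24 rats that inhaled clean air or hexanal. They are Alas2, Hbb, Slc4a1, Epb42, Ahsp and Rhag, taken by name from a list of erythroid genes, and 8 probes on the array carry them. The transcripts behind the probes are NM_013197 (Alas2), NM_033234 (Hbb), NM_012651 (Slc4a1), NM_001108590 (Epb42), NM_001106299 (Ahsp) and NM_023022 (Rhag). Fischer-344 rats of both sexes, obtained at 7 to 8 weeks of age, were placed in a nose-only inhalation chamber for 4 h a day on 5 days a week. Controls breathed filtered clean air. Hexanal, a volatile aldehyde, was given at 600 ppm (low-dose group), 1000 ppm (middle-dose group) and 1500 ppm (high-dose group). Each group had 6 rats, 3 males and 3 females, with 1 array for the lung RNA of each rat. The study's methods give 4 weeks of exposure and ppm, and the protocol among the labels gives 5 weeks and the same figures in mg per cubic meter. The study asked which lung genes respond to inhaled hexanal, and the members are compared here by dose and by sex.

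Red cell precursors make hemoglobin from globin chains and heme, and the last stage before the mature red cell, the reticulocyte, still carries this RNA in the blood. Alas2 is the erythroid form of the first enzyme of heme synthesis, Hbb is a beta globin chain, and Ahsp is a chaperone that binds free alpha globin. Slc4a1 is band 3, the anion exchanger of the red cell membrane, Epb42 is protein 4.2, which binds band 3, and Rhag is the Rh-associated glycoprotein of the same membrane. A whole lung sample also holds the blood in the tissue. Fewer cells of a type and less RNA per cell cannot be told apart in a bulk sample.

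The sequences before the gene starts are shown for Alas2 and Hbb because they were the members that passed the filter on dim probes and have an entry in the RefSeq promoter table of the rat assembly GRCr8. The table has entries for 4 of the 6 members, and Slc4a1 and Ahsp were not matched. Each sequence holds the 250 bases before the annotated start on the gene's own strand, and capitals mark the motifs searched on either strand. These were a GATA motif, spelled AGATAA or AGATAG, or the same with a T in place of the leading A, and the CACCC and CCAAT motifs. Erythroid genes are known to be bound by factors that read such letters. The Alas2 sequence lies at chrX:22895200-22895449 on the plus strand and the Hbb sequence at chr1:167663722-167663971 on the minus strand.
Alas2: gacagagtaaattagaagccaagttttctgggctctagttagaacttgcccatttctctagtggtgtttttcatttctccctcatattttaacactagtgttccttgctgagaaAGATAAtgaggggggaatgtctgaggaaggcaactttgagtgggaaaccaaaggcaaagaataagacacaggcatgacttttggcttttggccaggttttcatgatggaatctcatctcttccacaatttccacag
Hbb: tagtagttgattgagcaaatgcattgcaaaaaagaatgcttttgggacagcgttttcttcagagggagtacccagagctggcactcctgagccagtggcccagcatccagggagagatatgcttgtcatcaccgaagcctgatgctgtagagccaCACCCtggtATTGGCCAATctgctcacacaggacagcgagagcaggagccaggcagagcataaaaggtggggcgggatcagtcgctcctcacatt
The Alas2 sequence held AGATAA 136 bases before the start and neither of the other motifs. The Hbb sequence held CACCC 95 bases before the start, followed by CCAAT on the opposite strand and on the same strand, and no GATA motif. The Epb42 window held AGATAG 82 bases before the start and neither of the other motifs. In the Rhag window TTATCA, which is TGATAA on the opposite strand, lay 31 bases before the start. It also held 1 CACCC and 2 CCAAT motifs. Over the 33469 promoters of the table, 27.0% held a GATA motif in the same 250 bases, 49.2% held CACCC and 34.0% held CCAAT, so a match describes these letters and is no evidence of a site.

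The 75th percentile of the signal, to which every level below is relative, lay between 1701 and 3130, and 70.7% to 81.9% of the probes were well above background on an array. All 9 lung markers, among them Sftpc of type II cells and Scgb1a1 of club cells, were well above background on all 24 arrays, and no probe was saturated on any array. The 24 arrays lay on 6 slides of 4 arrays, all scanned on 1 day, and every slide held rats of 1 sex. Sex and slide therefore cannot be told apart, and the control group and the high-dose group never shared a slide.

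Alas2, Hbb, Slc4a1 and Ahsp were measured on all 24 arrays, and Epb42 and Rhag stayed near the background. A level here is the log2 signal minus the log2 of the array's 75th percentile, so a level of 0 is the 75th percentile of that array. The filter asked that a probe be well above background on no fewer than 5 arrays of some group of 6, which 4 of the 6 members met with 6 probes, among 21259 genes or unnamed probes. Hbb and Ahsp have a brighter and a dimmer probe each, and the brighter probe stands for the gene in the fit. Levels of different probes are not set against each other.

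From the control group to the highest dose the Alas2 group means were 1.36, 1.17, 1.01 and 0.56 on the log2 scale, with a wide spread within each group. In the control group the lowest, median and highest log2 levels of Alas2 were -0.09, 1.54 and 2.48. They were 0.32, 1.22 and 1.94 in the low-dose group, 0.08, 0.98 and 1.83 in the middle-dose group, and -0.22, 0.56 and 1.55 in the high-dose group. All 4 groups overlapped, control rat 3 had the highest level of all rats, and 5 of 6 high-dose rats lay below the control median while 1 lay below every control rat. The SD of the 6 rats was 0.84 in the control group and 0.69, 0.65 and 0.59 in the dose groups. Control rat 22, a female, was the lowest control rat on Alas2, on both Hbb probes, on Slc4a1 and on Ahsp.

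A call here is a fold change of at least 1.5 with an unadjusted limma p-value under 0.05. These thresholds are the study's, but the study used an unpaired t-test. Alas2 met the call at 1500 ppm with limma and did not meet it with the methods' unpaired test. Alas2 was 1.75-fold lower in the high-dose group, a log2 difference of -0.81 with a standard error of 0.38 and a 95% interval from -1.61 to -0.01; the limma p was 0.0472, against 0.0801 in an exact 2-sided permutation test of 6 against 6 rats. It was the 1 member called lower of the 4 tested, where 0.532% of all tested genes were called lower. The Benjamini-Hochberg adjusted limma p over all genes was 0.717. The log2 difference was -0.20 at 600 ppm (exact permutation p = 0.662) and -0.35 at 1000 ppm (exact permutation p = 0.433), and 0 of the 4 members were called at either dose, where 0.607% and 1.63% of all genes were called. Over the 4 doses the Alas2 slope was -0.78 per 1500 ppm (limma, adjusted p = 0.581) and met the call, where 0.513% of all genes were called lower for the slope. The call of the slope was lost with the slide as a fixed block (-0.81) or a random block (-0.79) and in 8 of 24 fits that left out 1 rat, with values from -0.78 to -0.59 there, without control rats 1, 2, 3 and 23 or high-dose rats 18, 36, 37 and 38.

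The Alas2 call at 1500 ppm rested on a narrow margin. It held with sex as a covariate (log2 difference -0.81, limma, adjusted p = 0.26, the lowest of a range up to 1.0 over the alternatives). It was lost with the slide as a fixed block (-0.85) or a random block (-0.82), with the methods' unpaired test on the same values, with normexp background correction (-0.79) and in a limma fit of the control and high-dose groups alone, each time because the unadjusted p passed 0.05. Leaving out any of 15 of the 24 rats ended it: control rats 1, 2, 3, 21 and 23, low-dose rats 6 and 26, middle-dose rats 12, 32 and 33, and high-dose rats 17, 18, 36, 37 and 38. The difference ran from -1.10 without control rat 22 to -0.59 without control rat 3.

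**Figure D1:**
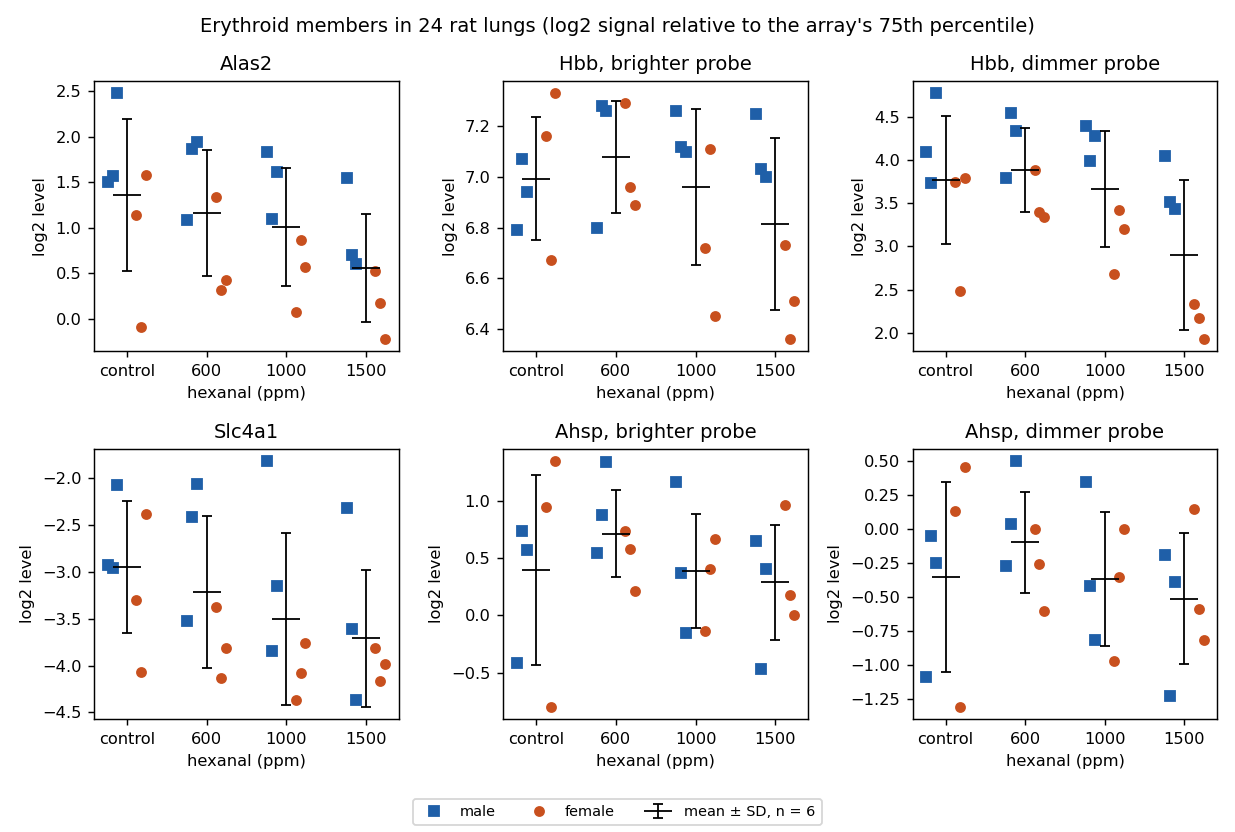
Log2 levels of 6 member probes in each of 24 rats (y axis, log2 signal relative to the array's 75th percentile) by group (x axis, ppm of hexanal), with males as squares, females as circles and bars for the mean ± SD of 6 rats. The males of Alas2, of the dimmer Hbb probe and of Slc4a1 sit above the females in each group mean, and the 3 high-dose females of the dimmer Hbb probe lie below every other rat. These 3 females shared 1 slide, and the share of all probes with such a gap is not given.

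The 2 Hbb probes differed in how much they varied. The brighter probe had a mean level of 6.96 and spanned 0.97 log2 units over the 24 rats, while the dimmer probe, at 3.55, spanned 2.84. The brighter probe had lowest, median and highest levels of 6.67, 7.01 and 7.33 in the control group and of 6.36, 6.87 and 7.25 in the high-dose group. In the low-dose and middle-dose groups its medians were both 7.11. The dimmer probe had 2.49, 3.77 and 4.77 in the control group, with medians of 3.84 and 3.70 in the low-dose and middle-dose groups, and 1.93, 2.88 and 4.05 in the high-dose group. The groups overlapped on both probes, and 3 of 6 high-dose rats on the dimmer probe, all females, were below every control rat. How many of all probes show this is not given here.

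At 1500 ppm the dimmer Hbb probe was 1.82-fold lower than in the control group, a log2 difference of -0.86 with a standard error of 0.39 and a 95% interval from -1.67 to -0.06. In the fit of every probe for itself it met the call with a limma adjusted p of 0.697, where 0.559% of all 23620 probes were called lower, and the exact permutation test gave p = 0.0779. The difference ran from -1.12 without control rat 22 to -0.66 without control rat 3, the same rats as for Alas2. The brighter probe differed by -0.18 (exact permutation p = 0.305, 95% interval from -0.51 to 0.15). Beta globin genes are close copies of each other, so a probe named Hbb may also read its relatives.

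Slc4a1 was low in signal but was measured on all 24 arrays. Its lowest, median and highest log2 levels were -4.07, -2.94 and -2.07 in the control group, -4.13, -3.45 and -2.06 in the low-dose group, -4.37, -3.80 and -1.82 in the middle-dose group and -4.37, -3.90 and -2.32 in the high-dose group. The groups overlapped widely, since the highest rat of all was a middle-dose male, while 5 of 6 high-dose rats were below the control median. Slc4a1 did not meet the call at any dose: the log2 difference was -0.27 for the low dose, -0.55 for the middle dose and -0.76 for the high dose (exact permutation p = 0.543, 0.271 and 0.0996). With sex as a covariate it was called at 1500 ppm (-0.76), as it was with normexp (-0.79 at both 1000 and 1500 ppm) and without control rat 22 or high-dose rat 16 (-1.04 to -0.98). Without middle-dose rat 11 it was called at 1000 ppm, with a log2 difference of -0.89.

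Ahsp, the alpha globin chaperone, did not meet the call at any dose. Its brighter probe had lowest, median and highest log2 levels of -0.80, 0.66 and 1.35 in the control group and of -0.47, 0.29 and 0.97 in the high-dose group. The controls spread wider than the high-dose rats, so that every high-dose rat fell inside the control range. The log2 difference was 0.32 at 600 ppm (95% interval from -0.35 to 0.98), -0.01 at 1000 ppm (-0.67 to 0.65) and -0.11 at 1500 ppm (-0.78 to 0.55), and the dimmer probe gave 0.25, -0.02 and -0.16. A 1.5-fold change upward at 600 ppm, in either direction at 1000 ppm and downward at 1500 ppm lay inside these intervals.

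Epb42 and Rhag, the other membrane genes, did not pass the filter. Epb42 was well above background on 3, 1, 4 and 2 of the 6 arrays of the groups in order of dose, starting with the controls, and its measured log2 level was between -8.65 and -5.46. Rhag was well above background on 3, 0, 3 and 4 arrays in the same order, with a measured level between -8.25 and -5.37. With 10 of 24 arrays measuring each, neither gene has a usable fold change.

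The clearest pattern of the members was by sex, with Alas2, Slc4a1 and the dimmer Hbb probe higher in males. Every slide held 1 sex, so these differences may also be of slides. Alas2 had lowest, median and highest log2 levels of 0.60, 1.56 and 2.48 in 12 males and of -0.22, 0.48 and 1.58 in 12 females. The ranges overlapped, but all 12 males lay above the female median and the male mean was above the female mean in all 4 groups. Alas2 was 1.90-fold higher in males, a log2 difference of 0.93 with a standard error of 0.19 and a 95% interval from 0.53 to 1.33 (limma with group as covariate, adjusted p = 0.0016).

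The Alas2 difference was 0.97 among control rats, and 0.94, 1.01 and 0.78 in the low-dose, middle-dose and high-dose groups. Males and females did not overlap at 1000 and 1500 ppm, with 3 rats of each sex. The share of all genes without overlap is not given here, so this describes Alas2 alone. An exact permutation test that moved sex within the dose groups gave p = 0.000212. That test moved single rats although each slide held 1 sex, so its p does not tell sex from slide. With the slide as a random block the adjusted limma p was 0.0139, and over the leave-one-out fits the difference stayed between 0.82 and 1.00. The effect of 1500 ppm was -0.90 in males and -0.71 in females, and the difference of these effects was -0.19 with a 95% interval from -1.42 to 1.04 (limma, adjusted p = 0.899), so a difference between the sexes in the dose effect was not shown.

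Slc4a1 was also higher in males, by 0.85 on the log2 scale (1.80-fold, standard error 0.26, limma adjusted p = 0.0208). Its lowest, median and highest levels were -4.37, -2.94 and -1.82 in males and -4.37, -3.90 and -2.38 in females. The ranges shared their lowest value, and 11 of 12 males were above the female median. The Slc4a1 call depended on the background correction: with normexp the difference was 0.46 (limma, adjusted p = 0.22), and with the slide as a random block the adjusted p was 0.0766.

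On the dimmer Hbb probe the levels were 3.43, 4.07 and 4.77 in males and 1.93, 3.27 and 3.88 in females, as lowest, median and highest. All 12 males were above the female median, and at 1000 and 1500 ppm the sexes did not overlap, with 3 rats of each sex. Here too the share of all probes without overlap is not given. The probe was 2.06-fold higher in males, a log2 difference of 1.04 with a standard error of 0.17 (every-probe limma fit, adjusted p = 0.000158; exact permutation within dose groups, p = 7.5e-05), where 0.851% of all probes were called higher in males and 24.3% had an adjusted p under 0.05. Both tests treat rats as free of slide, and the dimmer probe was not fitted with the slide as a block. The brighter Hbb probe differed by 0.23 (standard error 0.10, limma, adjusted p = 0.108), and its adjusted p was 0.0391 with quantile normalization, 0.0347 with scaling to the array median and 0.00881 in the unscaled table.

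2 of the 4 members tested, Alas2 and Slc4a1, were called higher in males at the 1.5-fold rule and also had an adjusted p under 0.05. Of all 21259 genes, 0.814% were called higher in males and 24.8% had an adjusted p under 0.05 in either direction. The split of all called genes moved with the scaling, from 173 higher and 648 lower in males to 270 and 320 with quantile normalization, 229 and 478 with scaling to the array median, and 466 and 247 in the authors' unscaled table. There the median of all genes moved from -0.02 to 0.14. Alas2 was higher in males by 0.90 to 1.09 under the alternatives tried.

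Ahsp did not differ detectably by sex. Its brighter probe had lowest, median and highest levels of -0.47, 0.56 and 1.34 in males and of -0.80, 0.50 and 1.35 in females, which overlapped almost fully. The male minus female difference was 0.04 (95% interval from -0.44 to 0.52, limma adjusted p = 0.908), and the dimmer probe gave 0.03. As a description without a test, since the pairs were chosen after the values were seen, the difference of 2 log2 levels was taken within each array. The male minus female difference of Alas2 exceeded that of Ahsp by 0.88, that of Slc4a1 exceeded it by 0.80 and that of the dimmer Hbb probe by 1.00. By dose, the high-dose minus control difference of Alas2 was -0.70 relative to that of Ahsp.

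**Figure D2:**
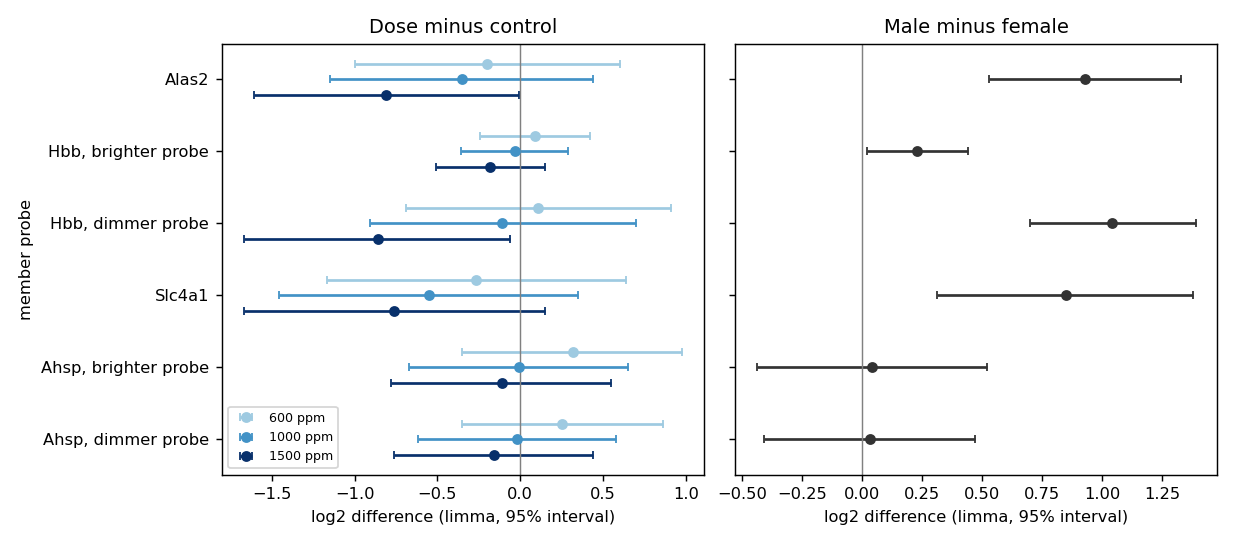
Log2 differences of 6 member probes (x axis, log2 units, with 95% limma intervals) for each dose against the control group (left) and for males minus females (right). The dose intervals of Alas2 and the dimmer Hbb probe end just below 0 at 1500 ppm, and the sex intervals of Alas2, Slc4a1 and both Hbb probes lie above 0 while both Ahsp probes centre near 0.

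The brighter Hbb probe was the 1 member called when the dose effects of the sexes were compared. At 1500 ppm it differed from the control group by 0.16 in males and by -0.52 in females, and the difference of these effects was 0.68 with a 95% interval from 0.14 to 1.22 (limma, adjusted p = 0.14). Of all genes, 8.29% were called in this direction, and at 600 and 1000 ppm 0 of the 4 members were called, where 1.98% and 4.57% of all genes were. On the dimmer probe the effects were -0.53 in males and -1.20 in females, a difference of 0.67 (limma, adjusted p = 0.452). The 3 high-dose females were the lowest 3 of all 24 rats on the dimmer probe, at 1.93, 2.17 and 2.34, where the next rat was at 2.49. The share of all probes with such a gap is not given here, so this describes 1 probe. All 3 females lay on 1 slide, where the middle-dose female was at 3.20 on this probe. On the brighter probe the mean of these 3 females was 6.53, and the middle-dose female on the same slide was at 6.45. The brighter probe's call was lost without control rat 23 (0.54), with normexp (0.54) and with the slide as a random block (0.59), and its sign turned with the slide as a fixed block (-0.52). At 1000 ppm its difference of effects was called without control rat 22 or middle-dose rat 32 (0.69 to 0.70).

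Within slides, where dose was compared in rats of 1 sex, Alas2 was lower at the higher dose on 4 of 6 slides. The high-dose mean minus the middle-dose rat of the slide was -0.67 in males and -0.40 in females, with 3 rats against 1 on each slide. Low-dose against control rats gave -0.76 in males and 0.47 in females, with 1 rat against 3. Middle-dose against low-dose rats gave -0.44 in males and 0.10 in females, with 2 rats against 2. Slc4a1 was lower at the higher dose on all 6 slides, by -0.12 to -0.87. The other members had both signs over the slides. The brighter Hbb probe ran from -0.13 to 0.24, the dimmer Hbb probe from -1.06 to 0.54 and the brighter Ahsp probe from -0.34 to 0.35. These values per slide carry no test of their own, and no slide holds the control and high-dose groups together. The fit with the slide as a fixed block, which uses all slides, gave -0.85 for Alas2 and -1.18 for Slc4a1 at 1500 ppm (limma, adjusted p = 0.983 for both).

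The members varied together from rat to rat, over all 24 rats less closely for the brighter Hbb probe and for Ahsp. Over 24 rats, with 15 pairs of the 6 probes compared, Pearson's r between Alas2 and the dimmer Hbb probe was 0.92 and Spearman's rho was 0.93, each with a permutation p of 1e-05, the smallest that 100000 resamples can give, and an adjusted p of 3.75e-05. Between Alas2 and Slc4a1 r and rho were both 0.89, with the same permutation p and adjusted p. Without the 2 rats farthest from the Alas2 median both values of r were 0.89. Within males r was 0.92 and 0.89, and within females 0.84 and 0.83. For Alas2 with the brighter Hbb probe r was 0.70 over 24 rats and 0.82 within females. Within males it was 0.28 (permutation p = 0.37).

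Over all 24 rats Ahsp followed Alas2 less closely as a description. Alas2 and the brighter Ahsp probe had r = 0.52 and rho = 0.53 over 24 rats (permutation p = 0.0100 and 0.00912, adjusted p = 0.0137 and 0.0105). Within females their r was 0.81 and within males 0.48 (permutation, adjusted p = 0.00232 and 0.171). When the 8 groups of dose and sex were each set to the same mean, r rose to 0.73 (permutation p = 5e-05, adjusted p = 0.00015). With Alas2 the centred r was 0.95 for the dimmer Hbb probe, 0.83 for Slc4a1 and 0.74 for the brighter Hbb probe. The brighter and dimmer Ahsp probes followed each other with r = 0.99. In all, 13 of the 15 pairs had an adjusted p under 0.05 over 24 rats and 15 after centring, while 4 pairs did within the 12 males and 12 pairs within the 12 females. The permutation after centring moved all 24 values freely, although the means of 8 groups had been removed. Its p-values are therefore likely too small, and the count of 15 may be too high. The pairs are of probes: Hbb and Ahsp enter with both probes, and the 2 probes of each also form a pair. Slc4a1 and the brighter Ahsp probe had r = 0.53 over all rats and r = 0.40 without 2 rats (permutation, adjusted p = 0.078), and after centring r = 0.63 over all rats and 0.57 when 2 were left out. Slide was not removed from these values, and all probes of a rat share 1 array and 1 scaling.

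**Figure D3:**
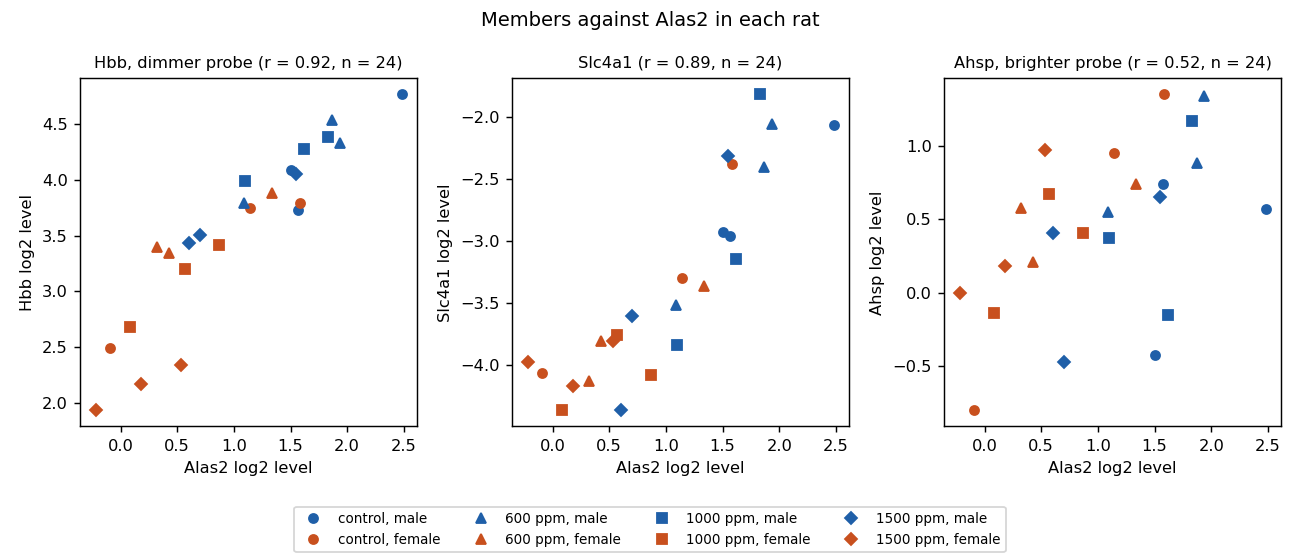
Log2 level of the dimmer Hbb probe, Slc4a1 and the brighter Ahsp probe (y axes) against that of Alas2 (x axis) in each of 24 rats, by dose (shape) and sex (colour). The Hbb and Slc4a1 points follow Alas2 closely (r = 0.92 and 0.89), and the Ahsp points scatter more widely (r = 0.52).

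Among the 12494 other named genes tested, those whose levels followed Alas2 most closely after centring the 8 groups were Hbe2 (r = 0.96), Hbb-bs (0.94), Rnls (0.94), Hbb-b1 (0.93) and Cd52 (0.93), over 24 rats. Vom2r12 (0.88), Fgf17 (0.88), Mob2 (0.84) and Stmp1 (0.82) were also among the 10 most like it. Of the 10, 3 are globin genes. Rnls encodes renalase, and Cd52 encodes a small surface glycoprotein of leukocytes. Cd52 was higher in males by 0.80 (limma, adjusted p = 0.00509) and had a log2 difference of -0.83 at 1500 ppm (limma, adjusted p = 0.684). Genes are not independent replicates, and these r values are given without a test.

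The other globin genes were partly lower at 1500 ppm and partly higher in males. Of 7 globin genes tested beside Hbb, 2 were called lower at 1500 ppm, Hbe2 (-0.67, limma adjusted p = 0.699) and Hbb-bs (-0.61, adjusted p = 0.676), where 0.532% of all genes were called lower, and none was called at 600 or 1000 ppm. The median log2 difference of the 7 was -0.45 at 1500 ppm, beside 0.01 over all genes. In males, Hbe2 (0.82), Hbb-b1 (0.67) and Hbb-bs (0.60) were called higher, with adjusted limma p-values of 0.00016, 0.000291 and 0.00315, where 0.814% of all genes were called higher. As for Hbb, the probes of these related globins may read each other's RNA, so these counts may not be of separate genes. Hba-a1, an alpha globin gene with a mean level of 7.45, differed by 0.08 between the sexes (limma, adjusted p = 0.570). The dim Hbg1 and Hbz, at mean levels of -4.94 and -4.82, had the opposite sign, with male minus female differences of -0.49 and -0.47 (limma, adjusted p = 0.000628 and 0.0346), and were named after their values were seen.

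Hba-a1 also has a brighter and a dimmer probe. Its brighter probe varied with an SD of 0.21 over the 24 rats and had r = 0.55 with Alas2, while its dimmer probe, at a level of 4.82, had an SD of 0.67 and r = 0.96. The dimmer Hba-a1 probe was higher in males by 0.92 (every-probe limma fit, adjusted p = 0.000206) and differed by -0.69 at 1500 ppm (adjusted p = 0.732). For Hbb the SD was 0.28 on the brighter probe and 0.76 on the dimmer probe. The 2 probes of Hbb-b1, at levels of 6.97 and 6.87, varied alike, with SDs of 0.50 and 0.51. Within arrays the sex difference of the dimmer Hbb probe exceeded that of the brighter probe by 0.81, and that of the brighter Ahsp probe exceeded that of its dimmer probe by 0.01, both given without a test.

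**Figure D4:**
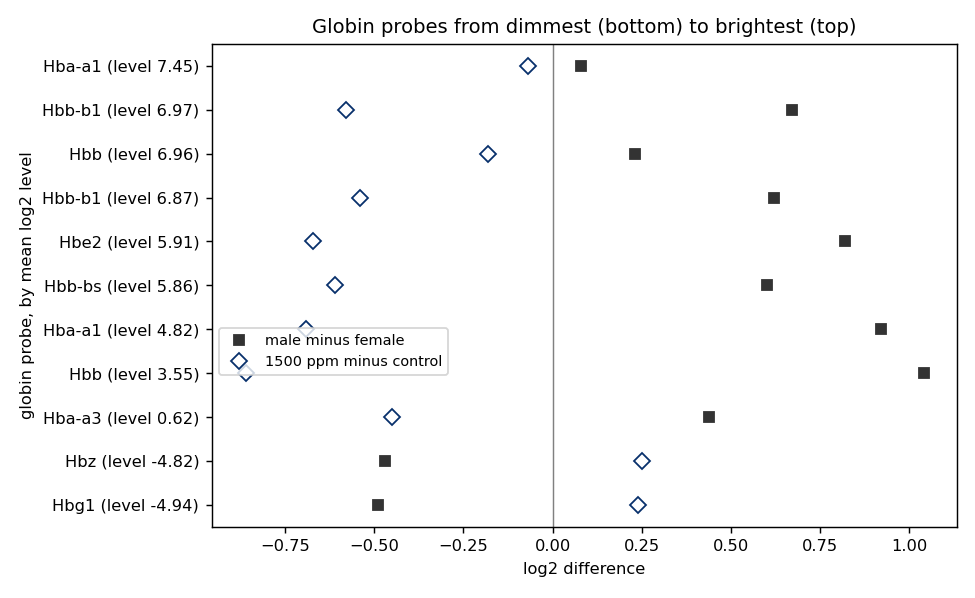
Male minus female differences (filled squares) and 1500 ppm minus control differences (open diamonds) in log2 units (x axis) for 11 globin probes, ordered by mean log2 level (y axis, brightest at the top). The brightest Hba-a1 and Hbb probes lie closest to 0 among the 9 probes at levels of 0.62 and above, all 9 lie below 0 for dose and above 0 for sex, and the dim Hbz and Hbg1 probes have the opposite signs.

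The remaining enzymes of heme synthesis showed no call by dose. Of 8 such genes tested, 0 were called at any dose, where 1.23% of all genes were called at 1500 ppm, and the median log2 difference at 1500 ppm was -0.03. Alad, Alas1 (the form used outside red cells) and Urod, among the brightest of them, differed by 0.05, -0.14 and 0.13 at 1500 ppm. Between the sexes Uros was the 1 called, higher in males by 0.74 (limma, adjusted p = 0.0122), where 0.814% of all genes were called higher. Uros was named after its value was seen. At an adjusted limma p under 0.05, 1 of the 8 was higher in males and 1 was lower. Alas1 differed between the sexes by 0.05 (limma, adjusted p = 0.794), and its r with Alas2 was -0.50 after centring. The dose effect of Alas1 in males minus that in females was called at all 3 doses, by -0.64, -0.73 and -1.0 at 600, 1000 and 1500 ppm, with limma adjusted p-values of 0.947, 0.434 and 0.05, of which none passed. Of all genes, 0.978%, 0.95% and 2.95% were called lower for these differences. All 3 share the same control rats, so they are not separate results.

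Of 7 other membrane and skeleton genes of the red cell, 0 were called at any dose, with a median of -0.15 at 1500 ppm. Of all genes, 0.607%, 1.63% and 1.23% were called at 600, 1000 and 1500 ppm. Kel, a blood group antigen, and Add2, an adducin of the membrane skeleton, were called higher in males (0.62 and 0.63, limma, adjusted p = 0.0291 and 0.00841), and both were named after their values were seen. Among 14 late erythroid and reticulocyte genes, 1 was called lower at 1500 ppm, Hemgn (-1.22, limma adjusted p = 0.710), and 2 were called higher in males, Hemgn (1.18, adjusted p = 0.0128) and Alox15 (0.66, adjusted p = 0.00308), beside 0.532% of all genes called lower at 1500 ppm and 0.814% called higher in males. The brightest genes of that list, Bnip3l, Prdx2, Bpgm and Car2, differed by -0.07, -0.02, -0.24 and -0.43 at 1500 ppm, and Bpgm and Car2 had r = 0.86 and 0.83 with Alas2 over 24 rats. Of 8 erythroid transcription factors, 1 (Bcl11a) was called lower at 1000 ppm, where 0.339% of all genes were. At the other doses and between the sexes 0 were called. For the difference of dose effects between the sexes at 1500 ppm, 3 of these 8 were called higher, Tal1 (0.68, limma adjusted p = 0.0316), Bcl11a (1.5, adjusted p = 0.0369) and Klf1 (0.74, adjusted p = 0.203). Trim10 (2.07, adjusted p = 0.0177) and Trim58 (1.21, adjusted p = 0.015) of the late erythroid list and Add2 (1.4, adjusted p = 0.028) of the membrane list were also called. Of all genes 8.29% were called higher for this difference and 4.97% had an adjusted p under 0.05. These genes were named after their values were seen. Of 7 iron uptake and receptor genes and of 10 genes of heme breakdown and iron recycling, 0 were called at any dose or between the sexes. With an adjusted limma p under 0.05, 1 of the 7 and 5 of the 10 were higher in males, and 1 of each list was lower. Between the sexes 0.814% of all genes were called higher and 3.05% lower in males.

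Markers of platelets and neutrophils differed by sex as well. Of 8 cardiac muscle genes tested 0 were called by sex, where 0.814% of all genes were called higher in males and 3.05% lower. The summed lung signal had medians of 647 in males and 659 in females. The part of any of these cells in the results above was not tested. All 7 platelet genes tested were lower in males, with a median of -0.34 and 4 at an adjusted limma p under 0.05, which 24.8% of all genes had. The summed platelet signal, in units of the array's 75th percentile, lay between 2.93 and 4.59 in males and between 3.45 and 7.46 in females. The summed neutrophil signal was 2.77 to 12.7 in males and 2.19 to 6.4 in females. All 5 neutrophil genes tested were higher in males, and 1 was called, where 0.814% of all genes were called higher. It was S100a9, a neutrophil calcium-binding protein (0.68, limma, adjusted p = 0.0288). The control, middle-dose and high-dose ranges of the summed neutrophil signal were 2.19 to 8.72, 3.89 to 12.7 and 2.73 to 8.51. At 1000 ppm 1 of the 5 genes, S100a8, was called higher (0.71, limma, adjusted p = 0.549), where 1.29% of all genes were. By dose, the summed platelet signal was 3.55 to 6.25 in the control group and 3.13 to 7.46 in the high-dose group. The summed cardiac muscle signal had a median of 7.16 in the control group, 53.4 in the middle-dose group and 14.3 in the high-dose group, with overlapping ranges, and the summed lung signal was 624 to 719 in the control group and 576 to 744 in the high-dose group. All defining markers on the array of these 4 lists were well above background on at least 1 array.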

How the data were processed

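Lung RNA of 24 rats was labelled with Cy3 and hybridised to single-colour Agilent rat arrays, 1 per rat. The deposited files hold spot intensity from Feature Extraction 11.5.1.1, and the authors' gProcessedSignal, already background-subtracted, was used. The authors' value table, taken to log2 here, equals that signal within 0.1% for at least 99.69% of probes on every array; its column medians lie between 262.8 and 441.3 and no scaling between arrays was found.

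Control spots and outlier spots (at most 0.86%) were left out and spots of a probe averaged. Log2 signals were set relative to the 75th percentile of each array. Of 30367 probes, 18355 (60.4%) took a single symbol through accessions in the RefSeq GRCr8 table, used for names, and 12012 took none. A gene is represented by its probe with the highest mean. Genes that passed the filter (well above background on no fewer than 5 arrays in some group of 6) were tested with limma 3.58.1 in R 4.3.3 (package data.table, version 1.17.8), for each dose, for a slope over dose, for sex with group as covariate, and for the difference of dose effects between the sexes, with Benjamini-Hochberg adjustment over 21259 genes or unnamed probes. A call was a fold change of at least 1.5 with p under 0.05, the thresholds of the study. Exact permutation tests were 2-sided; 6 against 6 rats allow 0.00216 as the smallest p. Python 3.11.15, numpy 2.4.6, scipy 1.17.1, pandas 2.3.3 and matplotlib 3.10.9 were used, and the fits were tested on simulated data.

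Groups and sex came from the labels. Nothing in the sources used here ties rats to cages or litters. The members and lists were chosen with earlier results of these data known. Text names the 6 members, genes among the 10 most like Alas2, and at most 4 genes of each list, those with the highest mean signal; any other was named after its value was seen. A few items that this rule covers are not reported here. Alternatives were normexp (offset 50), quantile or median scaling, the unscaled values, no filter, a filter on all 24 arrays, the methods' unpaired test, single-dose fits, sex or slide as a term, every probe for itself, and leaving out each rat. The number of arrays limits the precision.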

Additional observations from a re-analysis of the deposited data

Results flagged for a closer look

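Among 32 groups of 6 rats checked for a single value far from the rest, 2 had one, and chance alone gives about 1 in 20 groups. High-dose rat 16, a male, had the highest Slc4a1 log2 level of its group, -2.32 against -3.61 for the next rat, a gap of 0.631 of the group's range, just over Dixon's 95% critical value. Low-dose rat 27, a female, had the lowest Rhag level, -8.25 against -7.38 for the next rat, a gap of 0.629 of the range, and the Rhag probe was not well above background on that array.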

How the results depend on the processing

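Beside leave-one-out fits, 215 values of single members kept their direction and side of the threshold, 10 lost a call, 3 gained one and 12 changed sign. Of the members called, 1 at 1500 ppm became 0 with the methods' unpaired test, with control and that dose alone, and with the slide as a fixed or a random block, and 2 with sex as a covariate. The slope's 1 became 2 with normexp or sex as a covariate and 0 with either slide block. At 1000 ppm 0 became 1 with normexp, between the sexes 2 became 1 with normexp, and for the difference of dose effects at 1500 ppm 1 became 0 with normexp or either slide block. Correlated pairs went from 13 to 4 in males alone and 12 in females alone. Leaving out each rat gave 0 to 0 members called for the low-dose group, 0 to 1 for the middle-dose group, 0 to 2 for the high-dose group and for the slope, 2 to 2 by sex, and 0 to 1 for the difference of effects at each dose. The cause of these changes was not tested.

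Signs changed for Hbb at 1000 ppm (0.07 in the unscaled table, 0.01 with the slide fixed) and 1500 ppm (0.05, slide fixed) and for Ahsp at 1000 ppm (0.09, unscaled table). For the difference of dose effects, Hbb gave -0.06 with normexp and -0.37 with the slide fixed at 600 ppm, and -0.43 and -0.52 with the slide fixed at the higher doses. Alas2 at 1000 ppm gave -0.01 with median scaling, -0.09 in the unscaled table, -1.77 with the slide fixed and -0.17 with it random. Leaving out 1 rat moved Alas2 at 600 ppm from -0.49 to 0.02, Hbb at 1000 ppm from -0.10 to 0.07, and Ahsp from -0.25 to 0.18 at 1000 ppm, -0.35 to 0.08 at 1500 ppm and -0.08 to 0.15 by sex. It moved the Alas2 difference of effects from -0.39 to 0.45, -0.32 to 0.52 and -0.54 to 0.29 for the low, middle and high dose. The Alas2 slope ran from -1.06 to -0.59.

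All genes called at 600 ppm (129) became 41 with normexp, 583 without a filter, 50 with the filter on all arrays, 225 with the slide fixed and 195 without low-dose rat 26. At 1000 ppm 347 became 569 in the unscaled table, 558 without a filter, 226 with the all-array filter and 210 without middle-dose rat 33. At 1500 ppm 262 became 96 with normexp, 478 without a filter, 153 with the all-array filter, 398 with the slide fixed and 140 with it random. Its 149 higher and 113 lower became 26 and 70 with normexp and 102 and 160 in the unscaled table. The slope's 294 became 113, 511, 166 and, with the slide random, 145. By sex 821 became 482, 1377 and 444 with normexp, no filter and the all-array filter. For the difference of effects, 421 at 600 ppm became 3369 with normexp, 654 without a filter, 1630 with the slide fixed and 830 without control rat 2, 971 at 1000 ppm became 1494, 1842 and 1527 with normexp, the slide fixed and without that rat, and 2390 at 1500 ppm became 1584 and 3921 with normexp and the slide fixed. No paired analysis was possible because every rat has a number of its own and the groups share none.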
